A study of Rattus norvegicus with 36 samples.

Results

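The comparison described here sets liver gene expression at the highest dose of bis(2-ethylhexyl) tetrabromophthalate (TBPH), 706 mg/kg, against that at the next lower dose, 70.6 mg/kg. TBPH is a flame retardant, a diester of phthalic acid like the plasticiser DEHP but with bromine on its ring. The members are the 12 arrays that the labels assign to these doses, 6 a side, of 36 arrays in the series, and all 31042 probe sets that are not array controls were measured on each. Both groups were treated, and their doses differ 10-fold. All rats were male Harlan Sprague Dawley rats, 7 weeks old when dosing began, and received TBPH in corn oil by oral gavage at 5 ml/kg on 5 consecutive days. RNA came from the left liver lobe, taken the day after the last dose. The other 24 arrays, which are vehicle and 3 lower doses with 6 arrays each, enter only as reference values. Replicates are numbered in the labels without a statement that they are different rats, and p-values therefore reflect only the spread between these samples, which may be technical in part.

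Phthalate esters are known in rat liver for activating PPAR alpha, a nuclear receptor that pairs with RXR and switches on genes of fatty acid oxidation in peroxisomes and mitochondria. In rodents such activation is also known for enlarging the liver, with division of hepatocytes. Several other gene groups of the liver can follow hormones or stress. The immediate early genes respond within minutes to growth factors or stress, and genes such as Cish follow the pulses of growth hormone. Whether any of these acted here was not tested.

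The arrays carried liver RNA of similar quality, with 1 exception. Alb, the gene of serum albumin, averaged 14.76 on the log2 scale in both groups, while Prss1 of the exocrine pancreas averaged 3.12 at 706 mg/kg and 3.29 at 70.6 mg/kg, near the floor of the array. Correlations between arrays ran from 0.987 to 0.996. Replicate 5 at 70.6 mg/kg stood apart. Its GAPDH control probe sets gave 0.41 log2 for the 3′ minus the 5′ end, against -0.15 to 0.05 on the other arrays of its group. Its score on the first principal component of the 12 arrays was 45.7, against -14.8 to 6.18 on the rest. Many gene lists whose median or counts moved with it are given with and without it, but not all of them. Its part in them, beyond these values, was not tested.

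The livers of the 2 doses could not be told apart by any gene after adjustment. Values are log2 RMA levels (a background-corrected, quantile-normalized summary of the probes of a probe set), and differences are log2 levels at 706 minus those at 70.6 mg/kg. The limma test called 0 of 31042 probe sets (0.0%) at 0.05 after Benjamini-Hochberg adjustment over all of them, and the smallest adjusted p was 1.00. An unadjusted p under 0.05 was found for 939 probe sets (3.02%), 488 higher (1.57%) and 451 lower (1.45%). For scale, 5% of all tested is 1552.1. The 6 arrays of one dose and the 6 of the other did not overlap for 26 probe sets (0.0838%), 9 higher (0.029%) and 17 lower (0.0548%). Of the variance over all probe sets 7.40% lay between the groups, against the 9.09% that 1 of 11 degrees of freedom would take. The median correlation was 0.9940 between arrays of the same dose and 0.9945 between arrays of different dose.

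These data set narrow limits on most differences. Standard errors had a median of 0.084 on the log2 scale. The 95% interval lay within a 2-fold change for 99.7% of the probe sets and within 1.5-fold for 97.8%, a share that includes dim probe sets, where a small difference can reflect lack of signal. Only 8 probe sets differed by more than 2-fold in the means, 7 lower and 1 higher at 706 mg/kg, and 33 by more than 1.5-fold. Those 8 belong to Gadd45g, Cish (both of its probe sets), a probe set each of Dusp1 and RT1-Bb, Ugt2b, Siglec5 and 1 probe set without a gene symbol. On the plot of all probe sets those past 2-fold lie farthest from 0, and the cloud around 0 is narrow at high levels. Other labelled genes lie nearer to 0, such as Ier5 at -0.36.

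**Figure D1:**
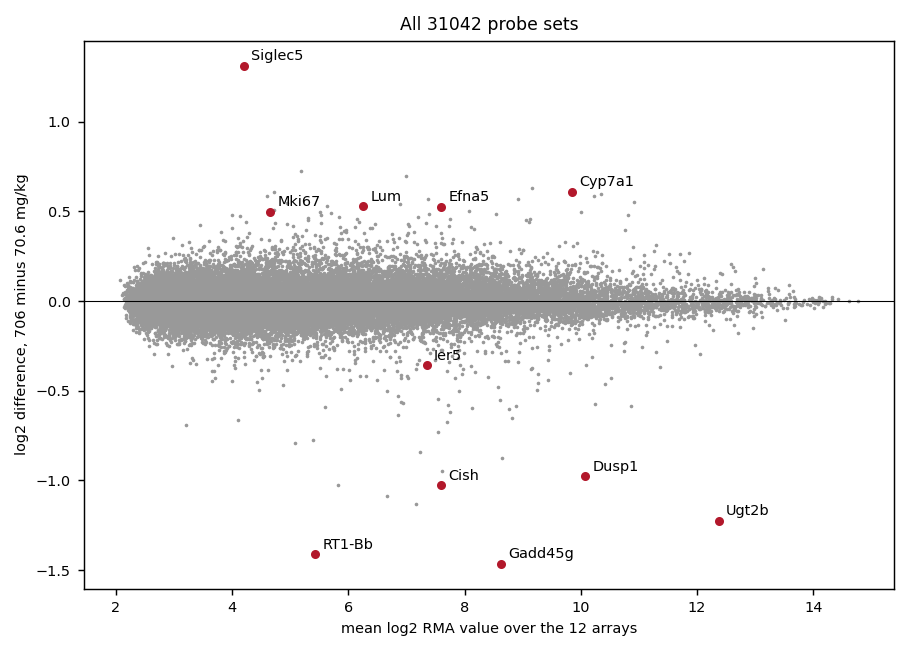
Difference in mean log2 RMA level, 706 minus 70.6 mg/kg (y axis), against the mean log2 level over the 12 arrays (x axis), 1 point per probe set for all 31042 probe sets, with 11 genes in red. Gadd45g (-1.46), RT1-Bb (-1.41) and Ugt2b (-1.23) lie lowest and Siglec5 (1.31) lies highest, and none of the points passed the adjusted threshold.

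The following gene counts take each gene by its brightest probe set, 14217 genes in all. Of these, 6597 (46.4%) were higher and 7620 (53.6%) lower at 706 mg/kg, with a median difference of -0.01. Unadjusted p under 0.05 was reached by 381 genes (2.68%), 183 higher (1.29%) and 198 lower (1.39%), and 15 genes (0.106%) had groups that did not overlap, 4 higher (0.0281%) and 11 lower (0.0774%). These shares come from the fit with no array left out. They are the background for the member counts of the gene lists below that use every array. Counts given without an array have no such share beside them. Over all probe sets, the number with an unadjusted p under 0.05 by limma ran from 774 to 1231 when leaving out each array. Whether a list's count then moved more than that of all genes was not tested.

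Gadd45g, Cish and Dusp1, each induced within hours by stress or hormone signals, were more than 2-fold lower in the mean at 706 mg/kg in at least 1 probe set. Gadd45g, a stress sensor of the growth arrest and DNA damage family, ranged from 8.90 to 9.74 (median 9.32) at 70.6 mg/kg and from 6.68 to 9.64 (median 7.80) at 706 mg/kg. Of the 706 mg/kg replicates 5 lay below every array at 70.6 mg/kg, and replicate 2 at 9.64 lay among them. The difference was -1.46 with a 95% interval of -2.28 to -0.65 (limma, adjusted p = 1.00). Gadd45a, its paralogue and a p53 target, ranged from 8.83 to 9.55 (median 9.11) at 70.6 mg/kg and from 8.01 to 9.36 (median 8.31) at 706 mg/kg, and replicate 2 was again the highest of the 706 mg/kg arrays. Its difference was -0.65 (-1.04 to -0.27). Without replicate 2 at 706 mg/kg the differences were -1.81 for Gadd45g and -0.83 for Gadd45a, and both had an adjusted p of 0.234, the smallest that leaving out any array gave.

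Cish, a feedback inhibitor of cytokine and growth hormone signalling that is induced through STAT5, followed the same pattern. It ranged from 7.89 to 8.28 (median 8.15) at 70.6 mg/kg, and from 5.78 to 8.25 (median 7.46) at 706 mg/kg. At 706 mg/kg replicates 1 and 3 were low, at 5.78 and 5.79, and replicate 2 was the only array within the range of the lower dose. The difference was -1.03 (-1.78 to -0.28) with the brighter probe set and -1.13 with the other one (limma, adjusted p = 1.00 for both). The 250 bases before the Cish start are shown because they hold 4 matches to the STAT5 motif TTCNNNGAA, in capitals, at chr8:116850719-116850968 on the + strand of GRCr8 (RefSeq):
Cish: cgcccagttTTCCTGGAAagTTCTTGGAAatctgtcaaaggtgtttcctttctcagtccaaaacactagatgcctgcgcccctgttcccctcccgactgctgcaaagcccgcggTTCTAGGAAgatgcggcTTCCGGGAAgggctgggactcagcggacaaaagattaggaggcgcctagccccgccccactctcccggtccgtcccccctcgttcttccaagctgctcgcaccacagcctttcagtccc
The motif reads the same on both strands in its fixed letters. It occurred in 7.52% of 27457 RefSeq promoters over the same window, and in 4 of the 30 growth hormone and sex-biased genes with a promoter in the table (13.3%): Cish, Socs1, Serpina3n and A1bg. A match describes letters only and was not tested as a binding site.

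Both genes also had different SDs in the 2 groups, a difference that was not tested. The SD of Gadd45g was 0.30 over the 6 arrays at 70.6 mg/kg and 1.12 over those at 706 mg/kg, and the SD of Cish was 0.17 and 1.04. In vehicle and the 3 lower doses the SDs ran from 1.00 to 1.32 for Gadd45g and from 0.80 to 1.13 for Cish. The 706 mg/kg means of 7.89 for Gadd45g and 7.07 for Cish lay within the means of those 4 groups, 7.76 to 8.46 and 6.52 to 7.25. For both genes the 70.6 mg/kg group had the highest mean and the smallest SD of the 6 groups. Against the same vehicle arrays, the Gadd45g mean differed by 0.13 at 706 and by 1.60 at 70.6 mg/kg. Those differences share their vehicle arrays and are given side by side only.

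**Figure D2:**
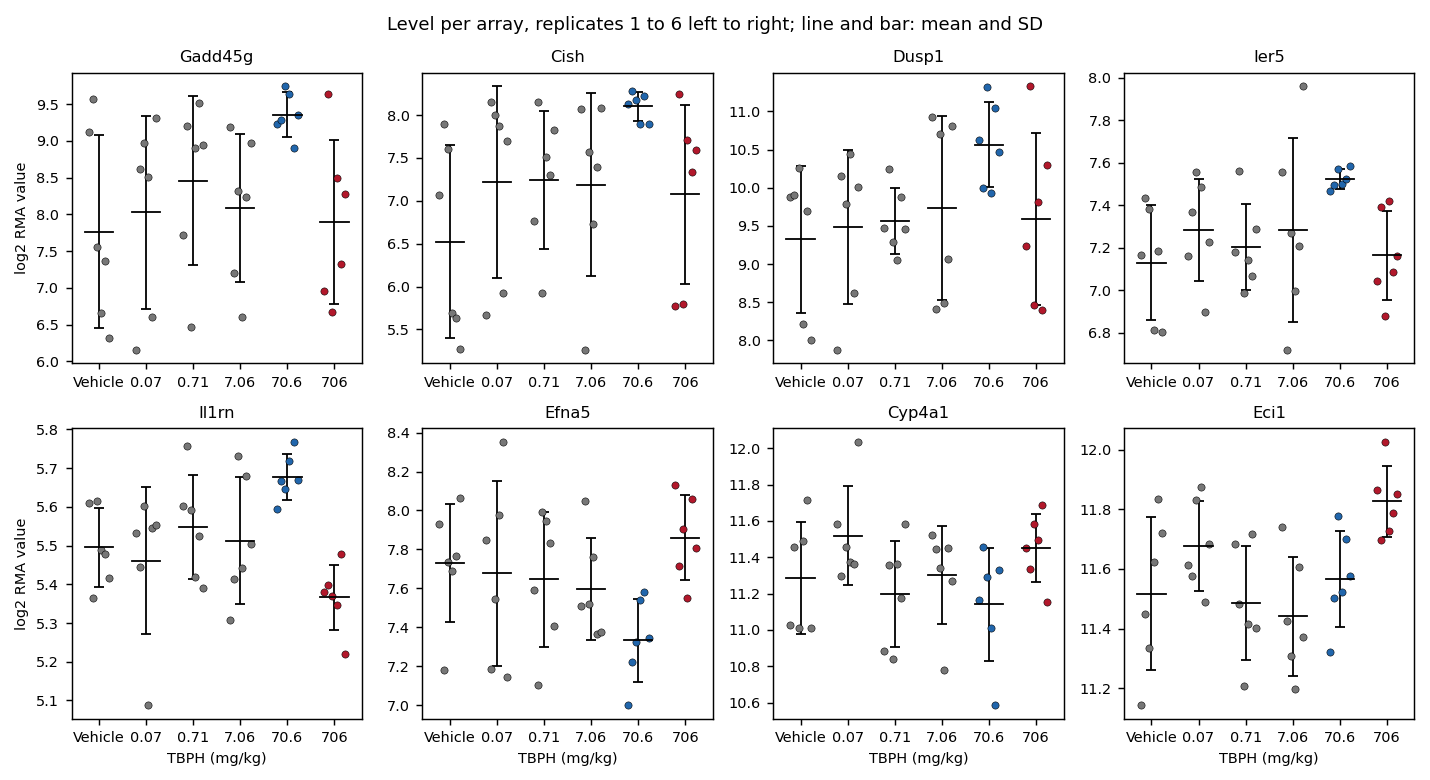
Level of 8 genes on each of the 36 arrays (y axis, log2 RMA value) by dose group (x axis, mg/kg), with the mean and SD (n = 6) as lines and bars, 70.6 mg/kg in blue, 706 mg/kg in red and the other groups in grey. The 70.6 mg/kg arrays are tightly grouped and high for Gadd45g, Cish and Ier5, and the 706 mg/kg and 70.6 mg/kg arrays do not overlap for Ier5 and Il1rn.

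Among the immediate early genes, 26 of 33 measured members were lower at 706 mg/kg and 7 higher, with a median of -0.14 where the median over all genes was -0.01. Of the 33, 11 lay below the median level of all probe sets, and the brighter members alone had a median of -0.33. An unadjusted p under 0.05 was found for 8 of the 33, all of them lower, against 1.39% of all genes in that direction, and none passed the adjusted threshold. Without replicate 5 at 70.6 mg/kg 21 members were lower and 12 higher, with a median of -0.07 and 7 lower members at that level. Without replicate 2 at 706 mg/kg the median was -0.21 and 12 members were lower at that level. The mean level over the list was 6.57 at 70.6 mg/kg, the highest of the 6 groups. At 706 mg/kg it was 6.35, within the 6.27 to 6.40 spanned by vehicle and the 3 lower doses. Against the same vehicle arrays, the median member difference was 0.03 at 706 and 0.28 at 70.6 mg/kg, given side by side only.

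Ier5, a growth and heat stress response gene, separated the groups entirely. It ranged from 7.47 to 7.58 (median 7.51) at 70.6 mg/kg and from 6.88 to 7.42 (median 7.12) at 706 mg/kg, a difference of -0.36 (-0.54 to -0.18). Its other probe sets differed by -0.08. The 70.6 mg/kg arrays had an SD of 0.05, smaller than in any other group of the study (0.20 to 0.43). Ier3, a stress-induced survival gene, ranged from 7.95 to 8.80 (median 8.41) at 70.6 mg/kg and from 7.32 to 8.19 (median 7.92) at 706 mg/kg, with 3 arrays at 706 mg/kg below all of the lower dose. Its difference was -0.60 (-0.97 to -0.22), and the adjusted p was 1.00 for both genes (limma).

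Dusp1, a phosphatase that switches off MAP kinases, ranged from 9.94 to 11.32 (median 10.55) at 70.6 mg/kg and from 8.40 to 11.33 (median 9.52) at 706 mg/kg, a difference of -0.98 (-1.86 to -0.09). Replicate 2 at 706 mg/kg had the highest value of that dose, as it had for Gadd45g, Cish and Bhlhe40, and without it the Dusp1 difference was -1.32. Without replicate 5 at 70.6 mg/kg it was -0.88, with an unadjusted p of 0.064 by limma. Ier2, a nuclear protein induced by growth factors, was lower by a difference of -0.59 (-1.04 to -0.14), and Junb, a subunit of the AP-1 transcription factor, by -0.53 (-0.91 to -0.15). Maff, a small Maf transcription factor, had a difference of -0.21 (-0.36 to -0.06), Trib1, a pseudokinase adaptor of protein degradation, one of -0.49, and Csrnp1, a nuclear transcription regulator, one of -0.44. The groups overlapped for each of these 6 genes. Fos, the classic member, lay between 4.50 and 4.96 at 70.6 mg/kg and between 4.56 and 4.86 at 706 mg/kg, a difference of -0.00 (-0.18 to 0.18). Egr1, another early transcription factor, differed by -0.60 with an interval of -1.69 to 0.48, and Jun by -0.38 (-0.87 to 0.11). Jun was 10.17 on replicate 2 at 706 mg/kg and at most 8.88 on the other arrays of that dose, and its difference without that replicate was -0.62. Egr1 ran from -0.95 without replicate 2 at 70.6 mg/kg to -0.30 without replicate 6 at 706 mg/kg.

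Of the 33 measured immediate early genes, 21 had a promoter in the RefSeq table, and 4 of them (19.0%) held the cAMP response element TGACGTCA within 250 bases before the start, against 1.70% of all promoters: Dusp1, Ier2, Jund and Maff. The element reads the same on both strands. The promoters of 3 of them are shown because their genes had an unadjusted p under 0.05, as stretches of 110 bases on GRCr8 (RefSeq) with the element in capitals, all on the + strand. The Dusp1 stretch is chr10:17184678-17184787, the Ier2 stretch chr19:40399256-40399365 and the Maff stretch chr7:112792677-112792786:
Dusp1: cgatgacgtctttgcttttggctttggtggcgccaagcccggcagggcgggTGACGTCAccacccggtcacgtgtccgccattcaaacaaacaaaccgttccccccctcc
Ier2: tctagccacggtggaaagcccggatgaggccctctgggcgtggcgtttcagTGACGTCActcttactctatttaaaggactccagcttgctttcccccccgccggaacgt
Maff: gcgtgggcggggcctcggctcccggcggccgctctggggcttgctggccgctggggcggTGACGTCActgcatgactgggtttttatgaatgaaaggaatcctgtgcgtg
Jund, the other gene with the element, had a difference of 0.00 (-0.22 to 0.22). The list was chosen with earlier results of these data known, and the motif counts describe it without a test.

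Signalling genes of cytokines and the acute phase included a few members with lower means at 706 mg/kg. Il1rn, the secreted antagonist of the interleukin-1 receptor, had the smallest p of all genes (unadjusted p = 9.07e-05 by limma, adjusted p = 1.00). It ranged from 5.60 to 5.77 (median 5.67) at 70.6 mg/kg and from 5.22 to 5.48 (median 5.37) at 706 mg/kg, and the groups did not overlap. Its difference was -0.31 (-0.44 to -0.19). Vehicle averaged 5.50, between both. Of 33 acute phase genes 20 were lower and 13 higher (median -0.01). An unadjusted p under 0.05 was reached by 5 of them, all lower, against 1.39% of all genes in that direction. Beside Il1rn these were Stat3, the transcription factor of interleukin-6 signalling, with -0.21 (-0.38 to -0.03), its feedback inhibitor Socs3 with -0.33 (-0.62 to -0.03), the lectin Mbl1 with -0.14 and the protease inhibitor A2m with -0.49 (-0.96 to -0.03). Without replicate 5 at 70.6 mg/kg 2 members were lower at that level, and the list median was -0.01. Without replicate 3 at 706 mg/kg 1 member was lower at that level, and without replicate 4 at 70.6 mg/kg the Socs3 difference was -0.20. The chemokine Cxcl1 reached 8.61 on replicate 4 at 70.6 mg/kg and lay between 4.52 and 5.97 on the other 11 arrays.

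Of the 11 lower genes whose groups did not overlap, 6 are named here: Ier5, Il1rn and 4 genes at low levels, Foxq1, Tedc2, Gdpd3 and Grk4. Foxq1, a forkhead transcription factor, ranged from 4.84 to 5.34 at 70.6 mg/kg and from 4.58 to 4.83 at 706 mg/kg, a difference of -0.33 (-0.50 to -0.17) with -0.35 in its other probe set. Tedc2, a centriole protein gene, ranged from 3.36 to 3.73 and from 3.10 to 3.34, a difference of -0.35 (-0.50 to -0.20). Gdpd3, a lysophospholipase D, had a difference of -0.25 and Grk4, a kinase of G protein-coupled receptors, one of -0.28 while its other probe set gave 0.10. Zswim1 with -0.43, Dpf3 with -0.38 and the probe set annotated to Mir29c with -0.31 overlapped between groups by at most 2 arrays on each side. That probe set reads a longer transcript and does not measure the mature miRNA.

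Genes higher at 706 mg/kg were led by Efna5, a membrane-bound ligand of Eph receptors. It ranged from 7.00 to 7.58 (median 7.33) at 70.6 mg/kg and from 7.55 to 8.13 (median 7.85) at 706 mg/kg. At 706 mg/kg 5 arrays lay above all arrays of the lower dose, and the other, replicate 4 at 7.55, lay just inside their range. The difference was 0.53 (0.29 to 0.76), and 0.30 in its other probe set (limma, adjusted p = 1.00). The vehicle mean of 7.73 was nearer to 706 mg/kg (7.86) than to 70.6 mg/kg (7.33). Cdk12, a kinase of transcription elongation, ranged from 5.48 to 5.83 at 70.6 mg/kg and from 5.90 to 6.11 at 706 mg/kg, a difference of 0.26 (0.11 to 0.41). Ctr9, a subunit of the PAF1 elongation complex, ranged from 7.90 to 8.12 and from 8.14 to 8.37, a difference of 0.23 (0.09 to 0.37). Neither overlapped between the groups, nor did the creatine transporter Slc6a8 (0.18) and the kinase Riok3 (0.12). Other probe sets of these genes gave 0.18 for Cdk12, 0.10 for Ctr9, -0.03 for Slc6a8, and 0.04 and 0.05 for Riok3.

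The remaining genes with the smallest p among those higher overlapped between the groups. Tmem170b, a membrane protein gene, had a difference of 0.35 (0.18 to 0.52) at a level near the floor. Hdac4, a histone deacetylase, had one of 0.31, the NAD-dependent deacetylase SIRT2 one of 0.23, the phosphatase regulator Ppp1r10 one of 0.33 and the fibronectin receptor subunit Itga5 one of 0.23. Depp1, a FOXO target of fasting and autophagy, had one of 0.57 (0.19 to 0.94), from 8.24 to 8.96 at 70.6 mg/kg and from 8.52 to 9.91 at 706 mg/kg. Vehicle averaged 9.30 for Depp1, above both doses.

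Targets of PPAR alpha were slightly higher at 706 mg/kg as a list, with 35 of 46 measured members above and 11 below 0, around a median of 0.08. In 8 of the 46 the unadjusted p was under 0.05, all higher, against 1.29% of all genes in that direction, and none passed the adjusted threshold. That count was 2 without replicate 5 at 70.6 mg/kg, where 34 members were higher, 12 lower and the median was 0.06. Leaving out each array in turn gave medians between 0.06 and 0.11. The mean level over the list was 9.57 at 706 mg/kg and 9.48 at 70.6 mg/kg, the lowest of all groups. It was also 9.57 at the lowest dose of the series, 9.51 in vehicle and 9.50 at each of the remaining doses. The group means therefore did not rise steadily with dose, and their differences were not tested.

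Enzymes of fatty acid breakdown made up most of those 8 members. Eci1, an isomerase of mitochondrial beta-oxidation, ranged from 11.32 to 11.78 (median 11.55) at 70.6 mg/kg and from 11.70 to 12.03 (median 11.82) at 706 mg/kg. At 706 mg/kg 4 arrays lay above all of the lower dose. The difference was 0.26 (0.09 to 0.43), or 0.29 without replicate 5 at 70.6 mg/kg, while the other probe set of Eci1 gave 0.03. Ech1, a dienoyl-CoA isomerase, had a difference of 0.19 (0.02 to 0.37). Acot2 and Acot4, thioesterases that release fatty acids from coenzyme A in mitochondria and peroxisomes, had differences of 0.25 (0.06 to 0.44) and 0.30 (0.03 to 0.57). Without replicate 5 at 70.6 mg/kg these were 0.19 for both. Pex11a, a protein of peroxisome division, had one of 0.21 (0.01 to 0.41) and Hsdl2, a peroxisomal dehydrogenase family member, one of 0.31 (0.04 to 0.57), or 0.20 without that array. Without replicate 5 at 706 mg/kg the Ech1 difference was 0.13.

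Cyp4a1, the fatty acid omega-hydroxylase most used as a marker of this receptor in rats, ranged from 10.58 to 11.46 (median 11.23) at 70.6 mg/kg and from 11.15 to 11.69 (median 11.47) at 706 mg/kg. The lowest value came from replicate 5 at 70.6 mg/kg, and the difference of 0.31 (0.04 to 0.59) was 0.20 without it. Cyp4a3, its close relative, which may share probes with it, had one of 0.26 (0.04 to 0.49). The mean of Cyp4a1 was 11.52 at 0.07 mg/kg, the lowest dose, and 11.45 at 706 mg/kg. Ehhadh, which carries out 2 steps of beta-oxidation in peroxisomes, ranged from 10.82 to 11.53 at 70.6 mg/kg and from 11.28 to 11.50 at 706 mg/kg, a difference of 0.20 (-0.03 to 0.42). Pdk4, a kinase that restrains glucose oxidation, had -0.14 (-0.65 to 0.36), and the secreted hormone Fgf21 had 0.03 (-1.05 to 1.11). No upstream match to the perfect direct repeat 1 element of the receptor, searched on both strands over 250 bases, was found in the 38 promoters of the list that the table holds, and 0.0546% of all promoters hold 1.

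**Figure D3:**
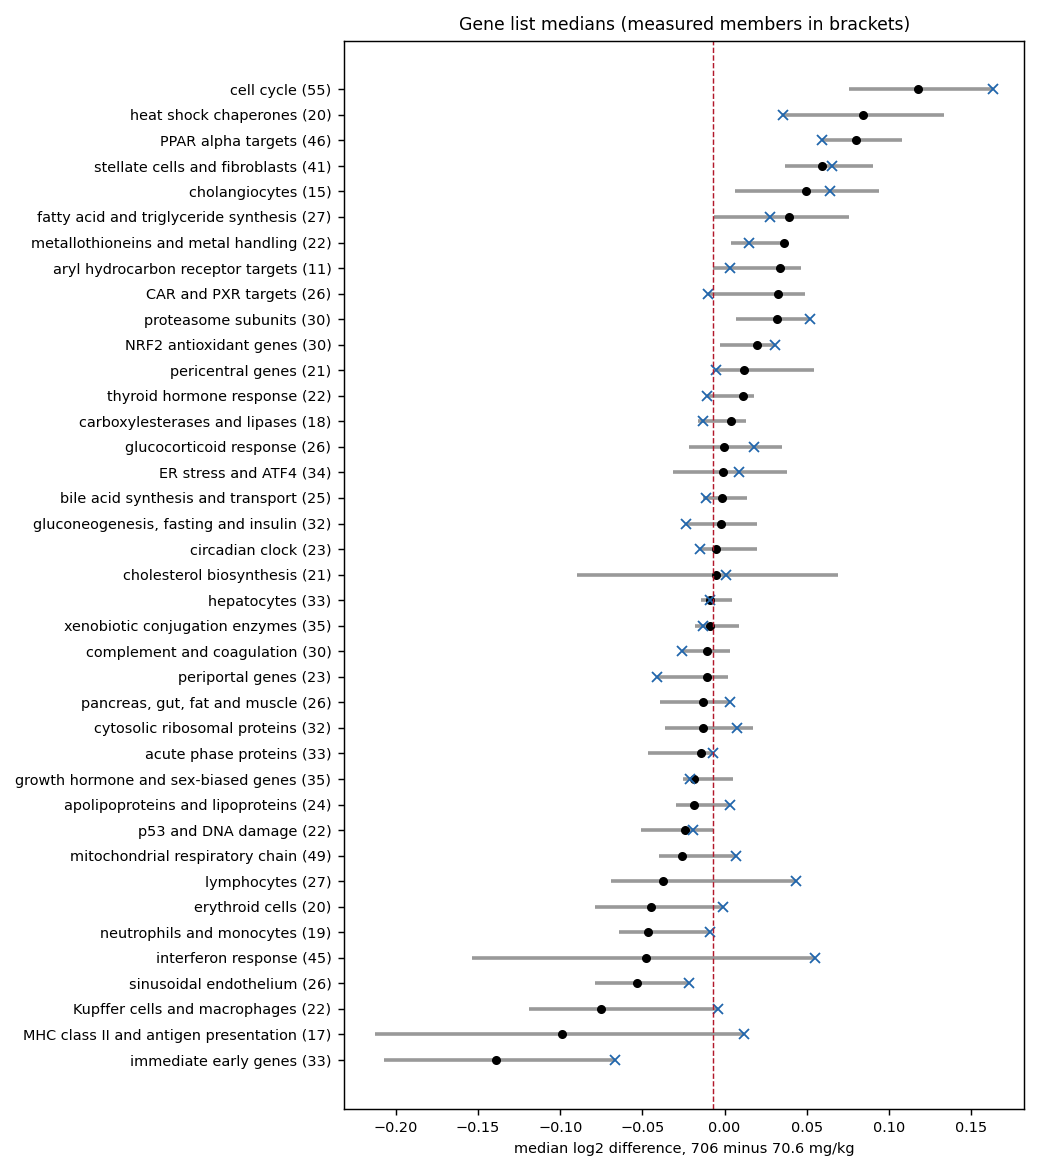
Median log2 difference, 706 minus 70.6 mg/kg (x axis), for each of 39 gene lists (y axis, measured members in brackets) as black points, with the range over leaving out each of the 12 arrays in turn as grey bars, the median without replicate 5 at 70.6 mg/kg as blue crosses and the all-gene median as a red dashed line. Cell cycle lies highest at 0.12 and immediate early genes lowest at -0.14, and the blue cross is at an end of many bars.

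Cell cycle genes were higher in 49 of 55 measured members and lower in 6, with a median of 0.12, beside 46.4% higher among all genes. Unadjusted p was under 0.05 for 4 of the 55, all higher, against 1.29% of all genes in that direction. These were Dlgap5, a mitotic spindle protein, with 0.32 (0.06 to 0.57) and the kinase Melk with 0.21. The others were the mitotic motor Kif20b with 0.47 (0.01 to 0.94) and the kinetochore subunit Cenpk with 0.26. Without replicate 5 at 70.6 mg/kg the counts of higher and lower members were again 49 and 6, with a median of 0.16 and 7 members at that level. Without replicate 4 at 70.6 mg/kg the median was 0.08 and 1 member was at that level. Of the 55 members, 21 lay below the median level of all probe sets, so many were read close to the floor.

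A few arrays had a high or low mean level over this list, and their part in those counts was not tested. Leaving out each array in turn gave medians between 0.08 and 0.16. The mean level over the list was 5.83 and 5.85 on replicates 4 and 5 at 706 mg/kg and between 5.29 and 5.42 on the other 4 arrays of that dose. At 70.6 mg/kg it ran from 5.02 to 5.66 (median 5.42), with replicates 3 and 4 lowest, and the median at 706 mg/kg was 5.41. Mki67, the proliferation antigen Ki-67, showed it clearly: it was 5.64 and 5.52 on replicates 4 and 5 at 706 mg/kg, 4.39 to 4.72 on the other 4, and 3.76 to 4.85 at 70.6 mg/kg. Its difference was 0.50 (-0.01 to 1.01). Ccnb1, the cyclin of entry into mitosis, was 6.27 and 6.28 on those arrays and at most 5.72 on the other 10, with a difference of 0.46 (-0.16 to 1.09), or 0.28 without replicate 4 at 70.6 mg/kg. Bulk RNA cannot tell more dividing cells from more transcript in each of them, and the same holds for the other cell types below.

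Motifs known from mitotic genes were counted in the promoters of the cell cycle list. CCAAT, the site of NF-Y, was found on either strand within 250 bases before the start in 33 of 44 promoters (75.0%) against 34.3% of all promoters, and the cell cycle homology region TTTGAA in 14 of 44 (31.8%) against 16.0%. Both are shown for Mki67 (chr1:199952678-199952787, - strand) and Kif20b (chr1:241840828-241840937, + strand), which had the largest differences of the list, on GRCr8 from RefSeq. Capitals mark CCAAT, its reverse ATTGG, and TTTGAA, which in Mki67 overlaps ATTGG by 1 base:
Mki67: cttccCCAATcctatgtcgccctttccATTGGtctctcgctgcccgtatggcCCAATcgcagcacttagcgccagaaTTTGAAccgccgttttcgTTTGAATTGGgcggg
Kif20b: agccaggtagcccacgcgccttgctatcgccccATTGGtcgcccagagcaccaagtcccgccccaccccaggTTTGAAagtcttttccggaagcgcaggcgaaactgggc
These matches were found by letters alone and were not tested.

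**Figure D4:**
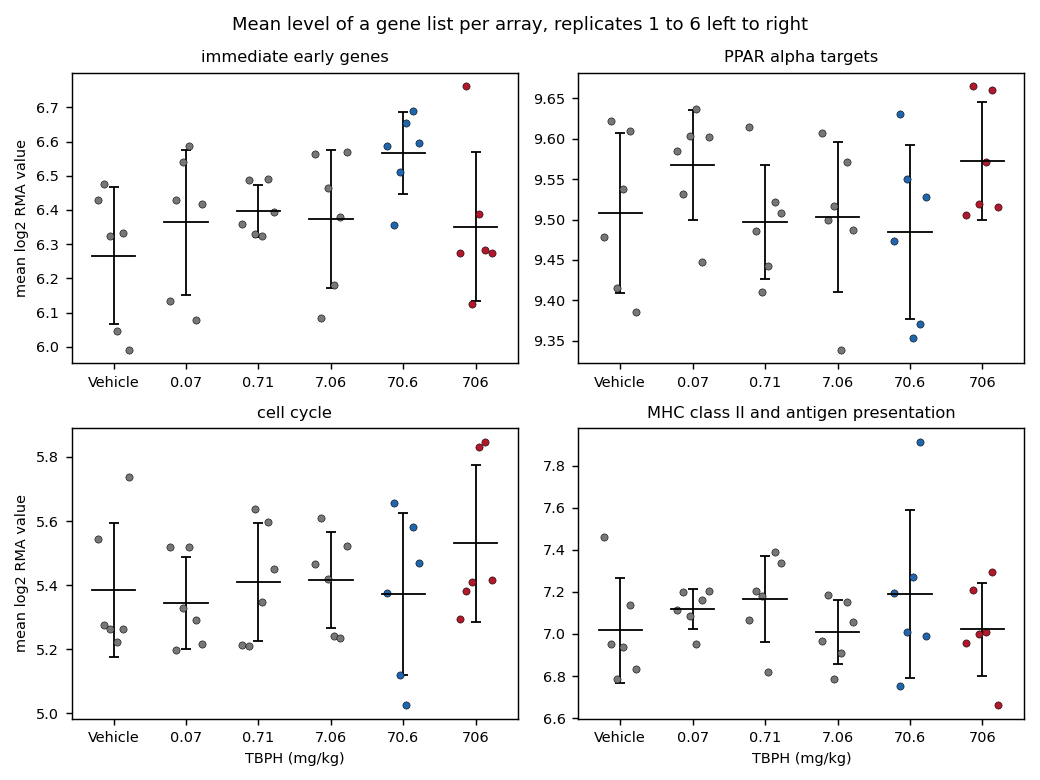
Mean log2 RMA level over the members of 4 gene lists on each array (y axis) by dose group (x axis, mg/kg), with the mean and SD (n = 6) as lines and bars. Replicates 4 and 5 at 706 mg/kg reach 5.83 and 5.85 for cell cycle, replicate 2 at 706 mg/kg reaches 6.76 for immediate early genes, and replicate 5 at 70.6 mg/kg reaches 7.91 for MHC class II.

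Lists of immune cells and of interferon had lower medians at 706 mg/kg that moved toward or past 0 once replicate 5 at 70.6 mg/kg was left out. Of 17 genes of MHC class II and antigen presentation 3 were higher and 14 lower (median -0.10), and without that array 10 were higher and 7 lower (median 0.01). Of 45 interferon response genes 12 were higher and 33 lower (median -0.05), and without it 31 were higher and 14 lower (median 0.06). Of 22 markers of Kupffer cells and other macrophages 5 were higher and 17 lower (median -0.08), and without it 10 were higher and 12 lower. That array had the highest mean level of the 12 for MHC class II (7.91 against at most 7.29 on the other 11), interferon (7.86 against at most 7.50), macrophage markers (8.35 against at most 8.25) and lymphocyte markers (5.35 against at most 5.01). Its GAPDH ratio was the highest as well.

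A similar dependence held for the mitochondrial respiratory chain, the subunits of oxidative phosphorylation. Of 49 members 45 were lower and 4 higher (median -0.03), and without replicate 5 at 70.6 mg/kg 23 were lower and 26 higher (median 0.01). The members' differences ran from -0.08 to 0.07, so the count of directions came from very small values. Proteasome subunits were higher in 23 of 30 members (median 0.03), and in 28 of 30 without that array.

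Markers of other cells differed little. Stellate cell and fibroblast genes were higher in 27 of 41 members (median 0.06; 0.07 without replicate 5 at 70.6 mg/kg), with the fibrillar collagen Col3a1 at 0.20 (0.04 to 0.37) and Col14a1 at 0.20 (0.03 to 0.38). Lum, a collagen-binding proteoglycan, had a wide interval, 0.53 (-0.12 to 1.17). Without replicate 4 at 70.6 mg/kg the Lum difference was 0.33. Sinusoidal endothelium had 9 of 26 members higher (median -0.05) and 8 of 26 without replicate 5 at 70.6 mg/kg (-0.02), and cholangiocytes had 10 of 15 higher with that array (0.05) and without it (0.06). Erythroid genes had 8 of 20 higher (-0.05) and 10 of 20 without that array, where the median was -0.00. Neutrophil and monocyte genes had 8 of 19 higher in both cases, with medians of -0.05 and -0.01. Lymphocyte genes had 9 of 27 higher (-0.04) and 16 of 27 without that array (0.04), so the sign of their median turned. Hepatocyte genes had 15 of 33 higher, and 13 of 33 without that array, with a median of -0.01 in both cases. Hnf4a, the master transcription factor of hepatocytes, had a difference of 0.22 (0.04 to 0.40), and Tdo2, the tryptophan-degrading enzyme of hepatocytes, one of -0.18 (-0.33 to -0.03).

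Receptors that sense foreign chemicals had targets with small differences and intervals around 0. Of 26 targets of CAR and PXR 18 were higher and 8 lower (median 0.03; -0.01 without replicate 5 at 70.6 mg/kg), with 0 members under an unadjusted p of 0.05. Cyp3a23-3a1, a steroid and drug hydroxylase, had a difference of 0.04 (-0.20 to 0.28) and Ephx1, an epoxide hydrolase, one of 0.06 (-0.13 to 0.26). Among 11 targets of the aryl hydrocarbon receptor, 7 were higher and 4 lower (median 0.03; 0.00 without that array). Cyp1a1 had a difference of 0.13 (-0.09 to 0.36) and Cyp1a2 one of 0.04 (-0.12 to 0.20). NRF2 antioxidant genes were higher in 17 of 30 members (median 0.02), and the quinone reductase Nqo1 differed by 0.04 (-0.21 to 0.29). The glutathione transferase Gsta3 differed by 0.32 with an interval of -0.17 to 0.80, and by 0.20 without replicate 4 at 706 mg/kg. These intervals bound the differences between the doses and do not show that the levels were equal.

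Several genes of lipid and bile acid metabolism varied widely between arrays of the same dose. Cyp7a1, which catalyses the slowest step from cholesterol to bile acids, ranged from 8.60 to 10.66 (median 9.51) at 70.6 mg/kg and from 8.88 to 11.62 (median 10.07) at 706 mg/kg, with 2 arrays at 706 mg/kg above all of the lower dose. Its difference was 0.61 (-0.28 to 1.50), and 0.32 without replicate 3 at 706 mg/kg. Abcb11, the canalicular export pump of bile salts, had a narrower interval around 0.11 (-0.03 to 0.24). Cholesterol synthesis had 6 of 21 members higher (median -0.01), and 11 of 21 without replicate 5 at 70.6 mg/kg. Sqle and Idi1, enzymes of that pathway, had differences of -0.00 with intervals of -0.45 to 0.45 and of -0.40 to 0.39. Fatty acid and triglyceride synthesis had 17 of 27 higher (median 0.04), with the desaturase Scd at 0.28 (-0.12 to 0.67) and the synthase Fasn at 0.22 (-0.21 to 0.66). Bile acid genes had 11 of 25 higher with a median of -0.00. The medians of the 16 lists not described by their own counts lay between -0.02 and 0.04 with all 12 arrays. Some of these lists moved without replicate 5 at 70.6 mg/kg. Cytosolic ribosomal proteins went from 10 to 19 of 32 members higher, and apolipoprotein and lipoprotein genes from 7 to 13 of 24. Pericentral genes went from 13 to 9 of 21, and the median of periportal genes from -0.01 to -0.04.

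Stress and hormone lists held single members that stood out. Heat shock chaperones were higher in 15 of 20 members (median 0.08; 0.04 without replicate 5 at 70.6 mg/kg), with the co-chaperone Bag3 at 0.19 (0.00 to 0.38), or 0.12 without replicate 3 at 706 mg/kg. The heat shock element, searched on both strands, was found in 3 of 17 of their promoters (17.6%; Hspd1, Hspe1, Hsph1) against 0.597% of all promoters. Bhlhe40, a repressor of the circadian clock, ranged from 7.24 to 8.41 (median 8.05) at 70.6 mg/kg and from 6.43 to 8.29 (median 7.04) at 706 mg/kg, a difference of -0.73 (-1.36 to -0.10). Per1, a core clock gene, differed by 0.16 (0.03 to 0.29), with 5 arrays at 706 mg/kg above all of the lower dose. Xbp1, a transcription factor of the unfolded protein response, differed by -0.24 (-0.48 to -0.01). Ddit4, an mTOR inhibitor induced by glucocorticoids and stress, differed by 0.69 (-0.10 to 1.49), and by 0.39 without replicate 2 at 706 mg/kg. Cyp2c11, the male-specific hydroxylase of rat liver, differed by -0.04 (-0.17 to 0.09).

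A few genes differed by several log2 units between arrays of the same dose. RT1-Bb, a beta chain of MHC class II, was 8.45 on replicate 5 at 706 mg/kg and between 3.67 and 4.26 on the other 5, while at 70.6 mg/kg 4 arrays lay between 6.73 and 8.08 and the other 2 at 3.84. Its difference of -1.41 had an interval of -3.24 to 0.42. These values are of its brightest probe set, and its other probe set gave a difference of -0.10. RT1-Ba, the alpha chain of the same molecule, was lowest on replicate 5 at 706 mg/kg (4.44), the array where RT1-Bb was highest, and on replicate 3 at 70.6 mg/kg (4.72), and between 8.94 and 10.32 on the other 10 arrays. Ugt2b, a glucuronosyltransferase, was 5.22 on replicate 3 at 706 mg/kg and between 12.62 and 13.30 on the other 11 arrays of both doses. Vehicle and 0.07 mg/kg each had 1 such low array as well (5.36 and 5.11). Without that replicate at 706 mg/kg the Ugt2b difference of -1.23 became 0.08.

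Siglec5, a sialic acid receptor of myeloid cells, was the only gene more than 2-fold higher. It was between 4.30 and 5.31 (median 4.91) on the 706 mg/kg arrays and between 2.53 and 5.11 (median 3.04) at 70.6 mg/kg, where replicates 4 and 6 lay at 4.58 and 5.11 and the others at 3.06 or below. The difference was 1.31 (0.53 to 2.09). Low arrays of this kind also stood in vehicle, where the values ran from 2.86 to 5.87.

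**Figure D5:**
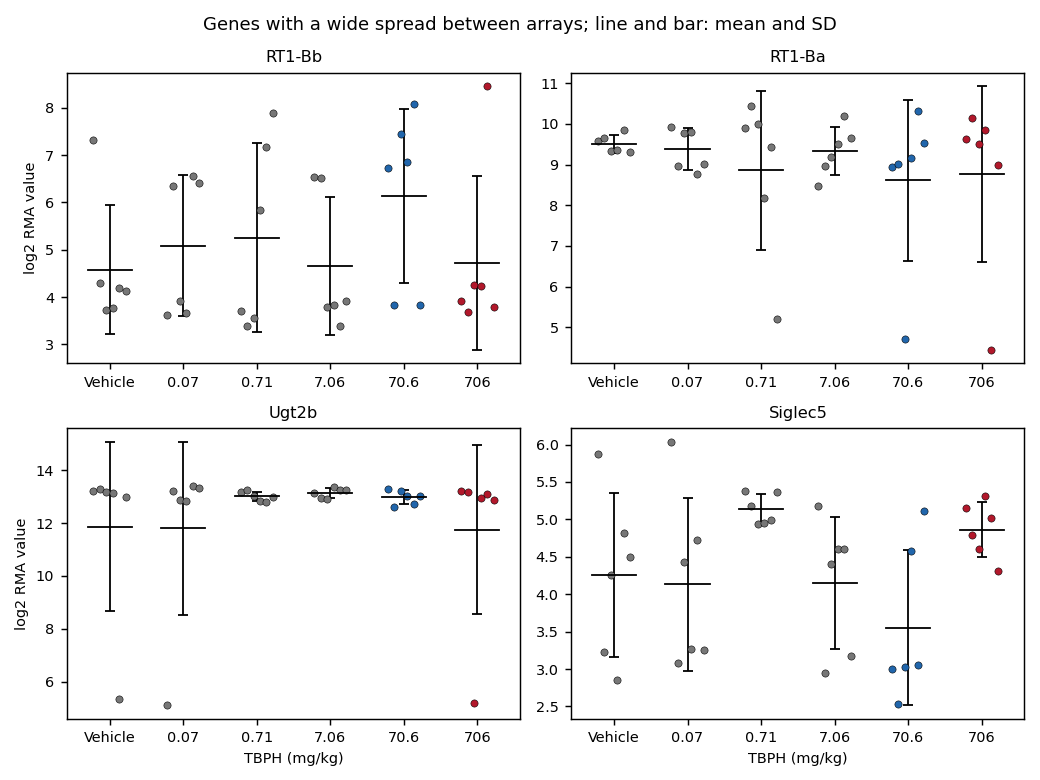
Level of RT1-Bb, RT1-Ba, Ugt2b and Siglec5 on each of the 36 arrays (y axis, log2 RMA value) by dose group (x axis, mg/kg), with the mean and SD (n = 6) as lines and bars. Single arrays are far from the rest, such as Ugt2b at 5.22 on a 706 mg/kg array, and RT1-Bb spans from 3.67 to 8.45 at 706 mg/kg.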

How the data were processed

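The deposited table gives the authors' log2 RMA values for each array and probe set, from 1.86 to 14.77 with none missing. The submitters' processing notes list RMA and affy without versions, and a genome build is not given in the sources used here. The 57 control probe sets among 31099 were removed. The platform annotation gave 1 symbol to 20826 probe sets, several to 436 and none to 9780. Only those with 1 symbol were named, and 20758 were matched by Entrez ID to current genes. Gene lists use the brightest probe set over the 36 arrays. Of 1173 listed genes 982 were measured.

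The fit was limma 3.58.1 in R 4.3.3 on the 12 arrays alone, each dose having its own mean (10 residual degrees of freedom), with two-sided tests and Benjamini-Hochberg adjustment over 31042 probe sets at 0.05. The series' design text compares each dose with vehicle by R/maanova, and the comparison of these doses is not in it. Array measures were compared by an exact permutation test over 924 splits. The script was tested on simulated data. Arrays give no counts, so their number limits the precision.

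Named genes are the 10 with the smallest p in each direction (none passed), a panel of 30 genes (27 measured), the 2 members of each list with the smallest p, and up to 5 genes in each direction with the largest difference among those whose groups do not overlap. Another 24 genes, mostly list members with an unadjusted p under 0.05, were added after their values were seen. The members, lists and panel were chosen with earlier results of these data known. Lists were described by counts and medians, with no test. Promoters are RefSeq's on GRCr8, 250 bases before the start. Alternatives are given in the closing section. Plots were made in Python 3.11.15 (matplotlib 3.10.9).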

Additional observations from a re-analysis of the deposited data

Results flagged for a closer look

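In 282 groups of 6 arrays tested, 26 values lay far from the other 5 of their group by Dixon's criterion. For scale, 1 in 20 of these groups is 14.1. That figure is no chance expectation, because 24 of the genes were added after their values were seen and genes share arrays. Replicate 5 at 70.6 mg/kg held 6 of them: a 3′ to 5′ difference of 0.41 for the GAPDH controls and of 1.66 for the actin controls, a first principal component score of 45.7, and levels of 8.92 for Aif1, a macrophage gene, 5.82 for Gbp4, an interferon-induced gene, and 5.67 for Trib1, the pseudokinase described above. Replicate 4 at 70.6 mg/kg held Idi1 (10.80), Socs3 (5.84), Igf1 (13.09) and Cxcl1 (8.61), and replicate 3 at that dose held Riok3 (9.60) and RT1-Ba (4.72). At 706 mg/kg, replicate 2 held Fgf21 (9.74), Jun (10.17), A2m (9.83) and Ddit4 (8.85), each the highest of its group. Replicate 5 at 706 mg/kg held RT1-Bb (8.45), RT1-Ba (4.44), Ndufs1 of respiratory complex I (10.44), the intestinal fatty acid binding protein Fabp2 (5.45), the endothelial gene Mmrn2 (5.53) and Hsdl2 (10.30). Replicate 3 held Cyp1a2 (12.79) and Ugt2b (5.22), and replicate 1 held the embryonic globin Hbe1 (3.41) and Col14a1 (8.17).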

How the results depend on the processing

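With limma, 0 probe sets were called under each of 21 alternatives: all 36 arrays in the fit, a replicate block, trend and robust moderation, array weights, only bright probe sets, quantile normalization again, median centring, 1 probe set per gene, a threshold of 0.10 and leaving out each array in turn. The number with an unadjusted p under 0.05 ran from 774 to 1231 when leaving out each array, and was 375 over the bright probe sets alone, of which fewer are tested. No pairing of the arrays by replicate number was seen: deviations of arrays with the same number correlated between -0.27 and 0.01, and no array matched its own number best. Such a check cannot exclude a batch or order shared by arrays of the same number. The replicate block left 0 calls and 739 probe sets with an unadjusted p under 0.05. Of 2706 values for 137 genes 2667 kept their direction and side of the threshold. The 39 that turned were of 10 genes. Those with array weights were Sqle (0.012), Idi1 (0.026), Cyp3a23-3a1 (-0.025) and Fos (0.023), and Fos was 0.0033 with quantile normalization again. Leaving out each array gave differences of -0.25 to 0.054 for Pdk4, -0.41 to 0.25 for Fgf21, -0.14 to 0.15 for Sqle, -0.11 to 0.17 for Idi1, -0.0021 to 0.081 for Cyp1a2, -0.031 to 0.092 for Cyp3a23-3a1, -0.029 to 0.12 for Nqo1, -0.044 to 0.048 for Fos, -0.63 to 1.02 for RT1-Ba and -1.52 to 0.081 for Ugt2b. The cause was not tested. Of 546 list medians 3 moved by more than 1 SD of the array means, all with bright members only: immediate early genes (-0.33), neutrophils and monocytes (-0.18) and the list of pancreas, gut, fat and muscle (-0.17). In 25 of 39 lists the median changed sign when some array was left out.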
